A study of Mus musculus with 4 samples.

Results

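Lamina-associated domains (LADs) of at least 500 kb in the *Tm7sf2*-/- (KO) hepatocytes were selected by their length alone, as KO LADs whose end lay 500000 bases or more after their start. There were 419 of them among 16076 KO LADs, or 2.61% (exact 95% interval 2.37 to 2.86%, which covers counting error only). The DamID libraries came from primary hepatocytes of *Tm7sf2*+/+ (WT) mice and of *Tm7sf2*-/- mice, both on C57BL/6 and 12 to 16 weeks old. The KO animals lack *Tm7sf2* in every cell and not in hepatocytes alone. For each genotype, cultured hepatocytes received for 24 h a lentivirus that encodes either the Dam methylase fused to lamin B1 or the unfused Dam, and the DNA of 4 mice was pooled, which gave 4 libraries in all. With a single pooled pair of libraries per genotype, no spread between animals is known, the regions of a list are not replicates, and no p-value is given for any difference between WT and KO. Since the lists give positions and nothing on signal or reads, the depth behind a LAD is unknown. The study's methods give fewer usable reads for the KO than for the WT libraries, so genotype and depth cannot be told apart. DamID carries no RNA, so the cell type was taken from the labels and could not be checked against marker genes.

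The nuclear lamina is a meshwork of lamins under the inner nuclear membrane, and LADs are the stretches of chromosome that touch it. They are known as long, A+T-rich, gene-poor and mostly silent domains, in which families of sensory receptor genes and very long neuronal genes are common outside the tissues that use them. The *Tm7sf2* protein is a sterol reductase of the nuclear envelope and endoplasmic reticulum, related to the lamin B receptor. In DamID, the fused enzyme methylates the adenine of GATC sites close to the lamina, and the unfused enzyme accounts for how open the DNA is.

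Since GATC sites are the only places where DamID can read a contact, the borders of the long KO LADs are shown first, as 120 bases of the plus strand of NCBIM37 (the same assembly as mm9) centered on each border, with every GATC in capitals. Of the 838 borders, 828 (98.8%) lay within a GATC site, and in the windows below the site at the center is the border itself. The first pair of sequences bounds a KO LAD that replaced nearly the whole of 1 WT LAD, the second pair bounds a KO LAD that held a whole WT LAD, the third pair bounds a KO LAD cut out of a longer WT LAD, and the last is a start shared by both genotypes.
Start on chromosome 10, chr10:70881132-70881251: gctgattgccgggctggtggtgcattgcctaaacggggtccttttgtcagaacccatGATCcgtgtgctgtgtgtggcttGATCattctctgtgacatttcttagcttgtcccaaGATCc
End on chromosome 10, chr10:72044699-72044818: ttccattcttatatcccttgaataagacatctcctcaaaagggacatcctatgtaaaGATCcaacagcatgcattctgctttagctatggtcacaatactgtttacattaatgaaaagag
Start on chromosome 1 (holds a WT LAD), chr1:7113873-7113992: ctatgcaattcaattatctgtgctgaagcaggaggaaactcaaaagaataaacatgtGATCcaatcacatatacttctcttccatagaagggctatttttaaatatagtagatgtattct
End on chromosome 1 (holds a WT LAD), chr1:8164318-8164437: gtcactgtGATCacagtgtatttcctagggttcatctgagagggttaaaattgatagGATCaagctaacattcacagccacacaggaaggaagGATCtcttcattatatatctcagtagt
Start on chromosome 1 (inside a WT LAD), chr1:104664436-104664555: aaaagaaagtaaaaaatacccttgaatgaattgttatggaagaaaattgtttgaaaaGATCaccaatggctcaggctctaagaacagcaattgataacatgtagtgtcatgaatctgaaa
End on chromosome 1 (inside a WT LAD), chr1:106384298-106384417: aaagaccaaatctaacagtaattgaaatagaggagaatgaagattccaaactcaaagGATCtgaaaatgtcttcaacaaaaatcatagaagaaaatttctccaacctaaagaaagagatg
Shared start on chromosome 6, chr6:8392963-8393082: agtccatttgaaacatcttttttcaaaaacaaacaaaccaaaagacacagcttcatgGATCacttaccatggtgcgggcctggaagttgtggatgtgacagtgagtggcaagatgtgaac
The A+T share of these windows ran from 48.3% at the chromosome 10 start to 69.2% at the end of the LAD inside a longer WT LAD. The chromosome 10 start and the chromosome 1 end of the second pair had 3 sites each within 120 bases, and the others had 1.

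The long KO LADs covered 300.9 Mb, which was 20.2% of all KO LAD bases and 11.3% of chromosomes 1 to 19, X and Y. Their median length was 646 kb (25th to 75th percentile 561 to 805 kb), 160 of them measured 500 to 600 kb, and 39 reached 1000 kb. The WT list held 709 LADs of the same minimum length, with a median of 925 kb, and these covered 911 Mb, or 61.9% of WT LAD bases. At the limit of the rule, the 3 shortest members measured 501213, 500652 and 500344 bases, on chromosomes X, 5 and 3. The 3 longest KO LADs left out measured 499895, 498303 and 497290 bases, on chromosomes 8, 10 and 5. The limit thus separates regions of nearly equal length.

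**Figure D1:**
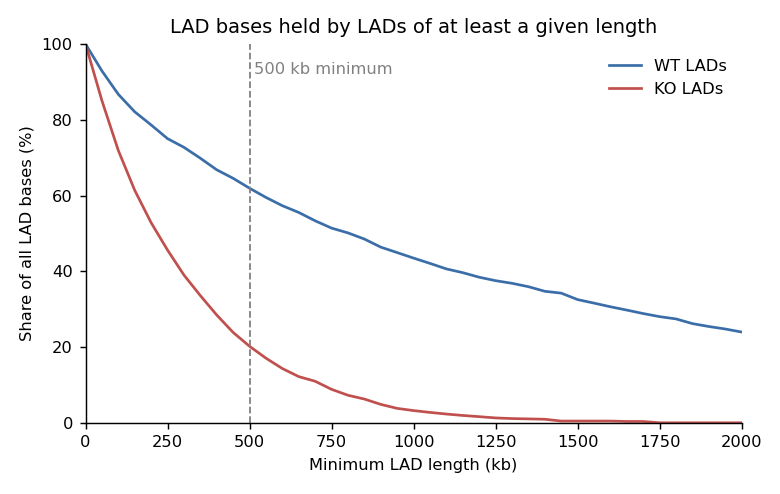
The share of all LAD bases (vertical axis, %) held by LADs of at least a given length (horizontal axis, kb) for the WT list (blue) and the KO list (red). At the dashed line of 500 kb the curves stand at 61.9% in WT and 20.2% in KO.

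These regions were described as long LADs that stay unbroken in the KO, but few long WT LADs met that description. Of the 709 WT LADs of at least 500 kb, 52 had 90% or more of their bases in 1 KO LAD, which is 7.33% (exact 95% interval 5.53 to 9.51%). Those 52 were 46 of the 387 WT LADs of 500 to 1000 kb and 6 of the 322 WT LADs of at least 1000 kb. The largest KO piece of a long WT LAD held a median of 40.1% of it, and 377 long WT LADs (53.2%) had no KO LAD of 500 kb or more on them. The bases themselves were mostly kept, since 92.3% of the long WT LAD bases lay in some KO LAD and 28.5% lay in a long one. The kept share depended on short gaps, since joining the LADs of both lists across gaps of up to 10 kb gave 10.99% and across gaps of up to 50 kb gave 67.3%, where 20.0% in place of 53.7% of the long KO LADs lay inside 1 WT LAD. In the lists as deposited, 225 of the 419 regions (53.7%) were long pieces of a single, still longer WT LAD, and 148 lay over at least 2 WT LADs. All 419 are called long KO LADs here.

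Nearly all bases of the long KO LADs were lamina-associated in WT as well. WT LADs held 98.2% of their bases, compared with 93.7% for KO LADs of 100 to 500 kb and 63.4% for those under 100 kb. Among the 419, 402 (95.9%) had at least 90% of their bases in WT LADs, where the share over all KO LADs was 50.1%. None of the 419 lay wholly outside WT LADs (exact 95% interval 0 to 0.877%), whereas 26.7% of all KO LADs did. A long interval touches a WT LAD more easily than a short one, and the length chosen by the rule was not separated from this difference.

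By their fit to the WT list the long KO LADs fell into 3 kinds. A total of 225 (53.7%) lay inside a single WT LAD, beside 41.5% of all KO LADs and 58.8% of those of 100 to 500 kb. Another 46 lay over 1 WT LAD and ran past its edge. The remaining 148 (35.3%) lay over at least 2 WT LADs, beside 11.9% of all KO LADs. Of these, 88 joined 2 WT LADs, 31 joined 3, 15 joined 4 and 14 joined 5 or more, with 8 as the highest number.

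**Figure D2:**
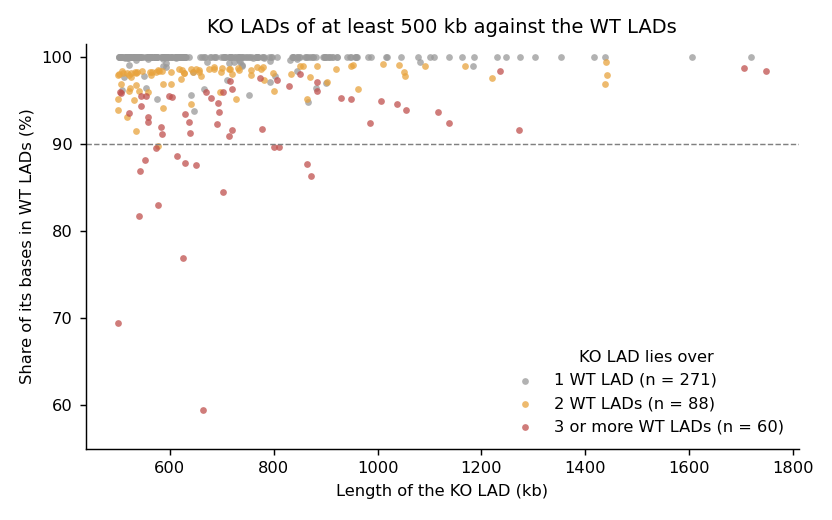
Each point is 1 of the 419 long KO LADs, placed by its length (kb) and by the share of its bases in WT LADs (%), and colored by the number of WT LADs under it. Of the 17 points below the dashed line at 90%, 16 lie over 3 or more WT LADs and 1 over 2, and the lowest stands at 59.4%.

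For the 225 inside a single WT LAD, the WT LAD was much the longer of the pair. Its median length was 2056 kb (584 to 8374 kb), and 199 of the 225 sat in a WT LAD of at least 1000 kb. The KO LAD covered a median of 36.0% of it (25th to 75th percentile 22.8 to 54.2%), and 218 of the 225 shared neither border with it. The longest of them, chr1:104664496-106384357, measured 1720 kb and filled 40.7% of a WT LAD of 4224 kb; it held no protein-coding gene, and its borders lay 1880740 and 622984 bases from the nearest WT border. A WT LAD of 6014 kb, chr1:145855632-151869779, was overlapped by 24 KO LADs, of which 5 were long and 4 of these lay inside it, and the largest piece, 616 kb, held 10.2% of it. Its genes include *Rgs1*, *Rgs13*, *Rgs18* and *Rgs21*, regulators of G protein signaling, and *Pla2g4a*, a phospholipase that releases arachidonic acid. The WT LAD chr6:67270097-70706857 carried 3 long KO LADs, and its genes include immunoglobulin kappa variable genes and the interleukin receptor genes *Il12rb2* and *Il23r*.

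The breaks that ended the long KO LADs were short, within lists whose shortest gap between any 2 KO LADs was 8.001 kb. The median gap to the next KO LAD was 12.04 kb (25th to 75th percentile 9.49 to 20.3 kb), and 623 of 834 gaps (74.7%) measured under 20 kb, compared with 51.3% of all 16055 gaps between KO LADs. A WT LAD covered the whole gap in 651 of the 834 (78.1%), compared with 44.9% of all gaps. The 619 separate gaps of this kind, each beside a long KO LAD and covered whole by 1 WT LAD, had a median of 23 GATC sites, 2.21 per kb, and 4.396 gene starts per Mb. The long KO LADs themselves had 2.64 GATC sites per kb and 4.78 gene starts per Mb. All 7203 KO gaps covered whole by a WT LAD had 2.30 sites per kb and 2.75 gene starts per Mb, and all gaps between KO LADs had 2.38 sites per kb. The breaks thus had fewer sites per kb than the long KO LADs beside them, as KO gaps in general did. Their density of gene starts was similar to that of the long KO LADs and above that of the 7203 gaps.

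The 6 WT LADs of at least 1000 kb that were kept at 90% or more were few enough to be listed by content. The WT LAD of 1022 kb at chr1:7138299-8159826 lay whole in the KO LAD chr1:7113933-8164377, whose border sequences are given above. On chromosome 10, the WT LAD chr10:70881404-72078488 had 97.2% of its bases in the KO LAD chr10:70881192-72044758. A single protein-coding gene touched each, *Pcmtd1* on chromosome 1 and *Ipmk* on chromosome 10. The WT LAD of 1391 kb on chromosome 2, at chr2:138109617-139500977, was kept at 93.7% and holds *Btbd3* and *Sptlc3*, the latter a subunit of the enzyme that starts sphingolipid synthesis. The other 3 sat on gene clusters: olfactory receptors on chromosome 10 (92.5% kept, WT length 1537 kb) and chromosome 9 (90.6%, 1048 kb), and vomeronasal receptor entries named as pseudogenes on chromosome 13 (91.1%, 1486 kb).

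**Figure D3:**
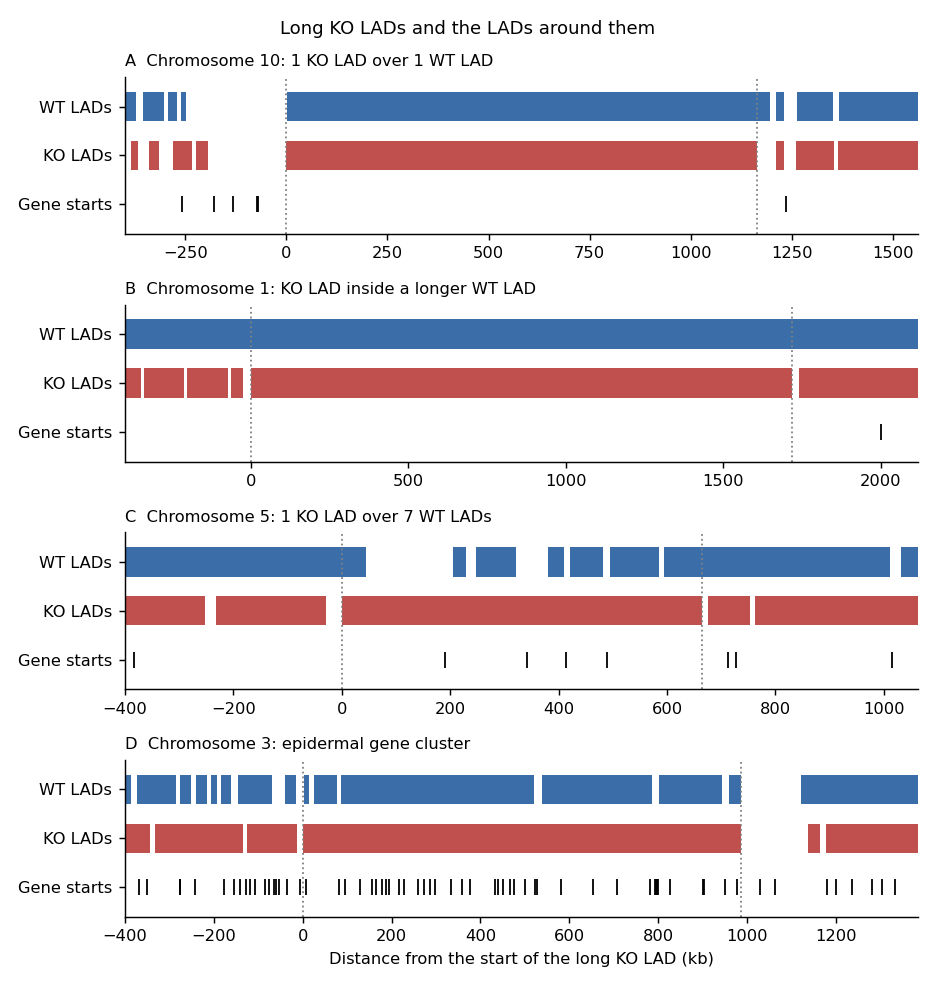
WT LADs (blue), KO LADs (red) and the starts of protein-coding genes (ticks) around 4 long KO LADs, drawn to scale against the distance (kb) from the start of the long KO LAD, whose ends are dotted. The LAD in A kept 97.2% of 1 WT LAD, that in B is a piece of a longer WT LAD, that in C joins 7 WT LADs, and that in D joins 6 over the epidermal gene cluster.

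Few borders were shared between the genotypes. Of the 838 borders of long KO LADs, 38 (4.53%) lay within 1 kb of a WT border, and so did 4.43% of the other KO LAD borders. At the very same base there were 14 (1.67%, against 1.29%). Of these 14, 8 stood at a gap in the assembly and 4 within 5 kb of the first or last sequenced base of a chromosome, where either list has to end. Only 2 were elsewhere: the start of chr6:8393023-9031056, shown above, and the start of chr14:3808939-5557431. Both borders of 1 WT LAD were matched within 10 kb by 3 long KO LADs, of 868 kb on chromosome 14, 760 kb on chromosome 5 and 723 kb on chromosome 18. The first and second of these abut assembly gaps and had 14.8% and 14.3% of their sampled 31-base words found once in the genome, whereas the region on chromosome 18 had 88.1%.

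The long KO LADs that joined WT LADs bridged 264 WT gaps. These gaps had a median length of 11.6 kb (8.001 to 162 kb), 91 of them measured under 10 kb, 119 measured 10 to 20 kb, and 7 reached 50 kb. They summed to 4.24 Mb. The shortest gap between any 2 WT LADs was 8.001 kb too. Of the deposited KO-only differential regions (DRs, here the stretches that are LAD in the KO and not in WT), 219 fell in 126 long KO LADs, and 173 of the 219 were bridged gaps in full. The other 46 lay at an outer edge of a KO LAD. The shortest of the 219 measured 10.007 kb, so no bridged gap under 10 kb was among them.

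Gene starts were frequent in the bridged gaps. The 264 gaps held the annotated start of 121 protein-coding gene entries (118 distinct symbols, since 4 entries in 1 gap are separate models of *Flg*), in 100 of the gaps (37.9%) and in 73 of the long KO LADs, which comes to 28.5 starts per Mb. The comparable figure was 17.7 per Mb in the 2257 WT gaps that lay whole in a shorter KO LAD, of which 25.4% held a start. It was 9.34 per Mb in the 3114 WT gaps under 50 kb that did not lie whole in a KO LAD, of which 16.7% held a start. All 8086 gaps between WT LADs had 15.5 per Mb, and the long KO LADs had 4.78 per Mb. Only 2 of the 121 were vomeronasal receptor genes, and none an olfactory receptor gene. The genes named in the following lines were picked from the 121 after their positions were seen.

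Transcription factor and developmental genes stood among the starts in bridged gaps. Among them, 8 that encode transcription regulators were *Tcfap2b*, *Bhlhe22*, *Bnc2*, *Prdm8*, *Lmo1*, *Tbx18*, *Rfx6* and *Satb1*, and 4 encode secreted signals, *Fgf5*, *Bmp3*, *Vegfc* and *Rspo3*. Genes of general cell maintenance were found there too, such as *Eif3f* (a translation initiation factor subunit, in a gap of 40.2 kb), *Mad2l1* (spindle checkpoint, 10.9 kb), *Mrps30* (mitochondrial ribosome, 16.2 kb) and *Asns* (asparagine synthetase, 12.1 kb). In all, 42 of the 121 entries had no base in a WT LAD, so their whole span was listed as lamina-associated in the KO alone.

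The longest bridged gap, 162 kb at chr5:98312966-98474672, was filled by *Antxr2*, an anthrax toxin receptor that binds extracellular matrix proteins. It lay in the KO LAD chr5:98268631-98932507, which joined 7 WT LADs and had the lowest share of bases in WT LADs of all 419, 59.4%. A second gap of the same KO LAD, 58.7 kb, held *Prdm8*, and another, 9.96 kb, held the start of *Fgf5*. The KO LAD of 500.7 kb at chr5:8315750-8816401 was 69.4% in WT LADs and bridged a gap of 90.8 kb over *Abcb1a*, a multidrug efflux transporter, and one of 19.3 kb over the neighboring starts of *Dbf4* and *Slc25a40*. On chromosome 7, chr7:116028513-116653961 joined 8 WT LADs (76.9% in WT LADs) and held *Stk33*, *Trim66*, *Ric3* and *Lmo1*. On chromosome 1, chr1:63230259-63771371 joined 6 (81.8%) and held *Adam23*, *Dytn*, *Zdbf2* and *Gpr1*. On chromosome 6, chr6:23409056-23986551 joined 7 (83.0%) with *Cadps2*, a regulator of vesicle release, and the bitter taste receptor gene *Tas2r118*. The longest KO LAD among those over most WT LADs, 1138 kb at chr6:57540285-58677789, joined 6 with 92.4% in WT LADs and held 11 type 1 vomeronasal receptor genes together with *Abcg2*, an efflux transporter, *Herc6*, *Vopp1* and *Lancl2*.

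The promoters in the bridged gaps held more CG than those in the rest of the long KO LADs and about as much as those outside LADs. In the 300 bases from 250 before to 50 after each annotated start, the dinucleotide CG (read on either strand, since it is its own complement) was counted. The median was 16 per window for the 121 starts in bridged gaps and 2 for the 1289 starts that lay in both a long KO LAD and a WT LAD, compared with 11 over all 22367 protein-coding genes and 16 for the 14445 starts outside the LADs of both genotypes. At least 10 CG were found in 71.1% of the first, 10.6% of the second, 54.0% of all and 65.4% of those outside LADs. Taking each symbol in the bridged gaps once gave a median of 15 and a share of 70.3%. Some gene models, those of many receptors among them, begin at the coding sequence, so the counts were repeated for models that begin at least 10 bases before it. The medians were then 16 (109 genes), 2 (707 genes) and 14 (19400 genes). The windows of 4 genes are shown with CG in capitals, each on the strand of its gene, because they span this range: 2 CG-rich starts in bridged gaps, a CG-poor start in a bridged gap, and a CG-poor start well within a LAD of both genotypes.
*Rpl22l1*, chr3:28704108-28704407, plus strand: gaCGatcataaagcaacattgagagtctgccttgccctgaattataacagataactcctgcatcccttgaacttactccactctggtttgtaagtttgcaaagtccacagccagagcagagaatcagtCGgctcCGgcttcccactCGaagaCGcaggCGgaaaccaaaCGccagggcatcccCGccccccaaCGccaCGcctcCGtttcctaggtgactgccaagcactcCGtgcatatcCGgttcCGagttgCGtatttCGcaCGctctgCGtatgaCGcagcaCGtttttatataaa
*Prmt6*, chr3:110053867-110054166, minus strand: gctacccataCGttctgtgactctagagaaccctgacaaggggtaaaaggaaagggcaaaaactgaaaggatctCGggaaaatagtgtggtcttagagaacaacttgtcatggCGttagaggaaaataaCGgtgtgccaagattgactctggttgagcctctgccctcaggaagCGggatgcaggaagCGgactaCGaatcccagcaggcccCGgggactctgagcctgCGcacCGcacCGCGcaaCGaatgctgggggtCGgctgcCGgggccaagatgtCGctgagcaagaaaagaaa
*Apcs*, chr1:174825136-174825435, minus strand: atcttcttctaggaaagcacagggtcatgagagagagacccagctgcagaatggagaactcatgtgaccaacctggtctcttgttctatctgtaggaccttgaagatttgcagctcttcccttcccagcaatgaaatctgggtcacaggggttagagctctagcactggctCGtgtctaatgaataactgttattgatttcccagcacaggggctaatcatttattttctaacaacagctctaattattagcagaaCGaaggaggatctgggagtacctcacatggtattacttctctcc
*Nlgn1*, chr3:26032607-26032906, minus strand: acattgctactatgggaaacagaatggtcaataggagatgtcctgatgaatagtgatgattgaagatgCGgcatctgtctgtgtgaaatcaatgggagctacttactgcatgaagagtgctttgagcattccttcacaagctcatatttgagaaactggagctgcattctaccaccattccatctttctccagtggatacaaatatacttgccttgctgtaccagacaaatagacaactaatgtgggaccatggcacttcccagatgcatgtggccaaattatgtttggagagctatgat
*Rpl22l1*, a paralog of a ribosomal protein gene, had 20 CG and *Prmt6*, an arginine methyltransferase gene, had 16. *Apcs*, which encodes the serum amyloid P component that hepatocytes secrete, had 2, and *Nlgn1*, which encodes a synaptic adhesion protein, had 1. CG-rich starts were also found within LADs of both genotypes, as for the glutamate receptor genes *Gria2* (27 CG) and *Grik1* (20 CG), whose whole spans lay in WT LADs.

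Of the genes that the study names for their position, looked up by symbol or older symbol, *Apcs* (chr1:174824093-174825185) was the only one found to overlap a long KO LAD. All of its 1.09 kb lay in the KO LAD chr1:174729135-175367568 of 638 kb, and none lay in a WT LAD. It sat in a bridged gap of 17.6 kb, and the same KO LAD held olfactory receptor genes such as *Olfr16*, which lay wholly in WT LADs too.

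A total of 1327 protein-coding genes lay wholly inside a long KO LAD, 1439 (6.43% of 22367) had at least 50% of their span in long KO LADs (1435 in a single one), and 1543 touched one. Gene classes were recomputed here from the deposited lists, after the study's definitions, and can differ from the study's own calls. By these classes, 1205 of the 1327 (90.8%, against 17.9% of all genes) were peripheral in both genotypes (PP). Another 117 (8.82%, against 17.1%) overlapped a KO-only DR (IP, from the interior to the periphery). No gene wholly inside a KO LAD can touch a WT-only DR, so the count of 0 in the class that leaves the periphery (PI, 5.43% of all genes) was set by construction, as was much of the PP share. The remaining 5 touched no DR and no WT LAD and fell in class II (56.6% of all genes), which here takes all genes left over. They lay in a KO LAD and so were not internal in the KO, whereas the study's class II stays internal. The class with DRs of both directions (AMB, 2.96% of all genes) had 0, by the same construction as PI. There were 49 genes inside the long KO LADs that no WT LAD touched.

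The genes were spread very unevenly. No protein-coding gene lay inside 184 of the 419 long KO LADs and 112 were touched by none, whereas 41 with 10 or more genes held 835 of the 1327. The genes inside were short, with a median span of 2.25 kb compared with 15.4 kb for all genes. The long KO LADs carried 4.78 protein-coding genes per Mb, the long WT LADs outside them 2.88, and the genome 8.42. KO LADs of 100 to 500 kb carried 4.01 and those under 100 kb 6.07. Counting genes wholly inside, the density differed with how repetitive the region was. The 170 long KO LADs with at least 80% of their sampled 31-base words found once carried 2.28 genes per Mb, the 218 with 50 to 80% carried 4.87, and the 31 under 50% carried 11.8. In the 377 long WT LADs with no long KO LAD on them, the same 3 classes carried 1.15, 3.90 and 9.78 genes per Mb, so the long KO LADs had the higher density in each.

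Sensory receptor families made up much of this gene content. At least 50% of the span lay in a long KO LAD for 385 of 1113 olfactory receptor genes (34.6%), in 23 LADs, for 82 of 203 type 1 vomeronasal receptor genes (40.4%), in 9 LADs, and for 30 of 119 type 2 vomeronasal receptor genes (25.2%), in 10 LADs. For bitter taste receptors it was 25 of 35 (71.4%), in 4 LADs, all on chromosome 6. Over all protein-coding genes, in or out of LADs, the share was 6.43%. KO LADs of any length held at least 50% of the span of 941 olfactory, 183 type 1 vomeronasal, 110 type 2 vomeronasal and 32 bitter taste receptor genes. Most of the olfactory and vomeronasal genes among these thus lay in shorter KO LADs, and most of the bitter taste receptor genes in long ones. Whether the families were more frequent in long KO LADs than other genes of KO LADs was not tested. Genes of one cluster share a LAD and are not independent, so the number of LADs is the better guide to how much stands behind each share. All 385 olfactory and all 25 bitter taste receptor genes lay mostly in WT LADs too, as did 79 of the 82 type 1 vomeronasal receptor genes.

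**Figure D4:**
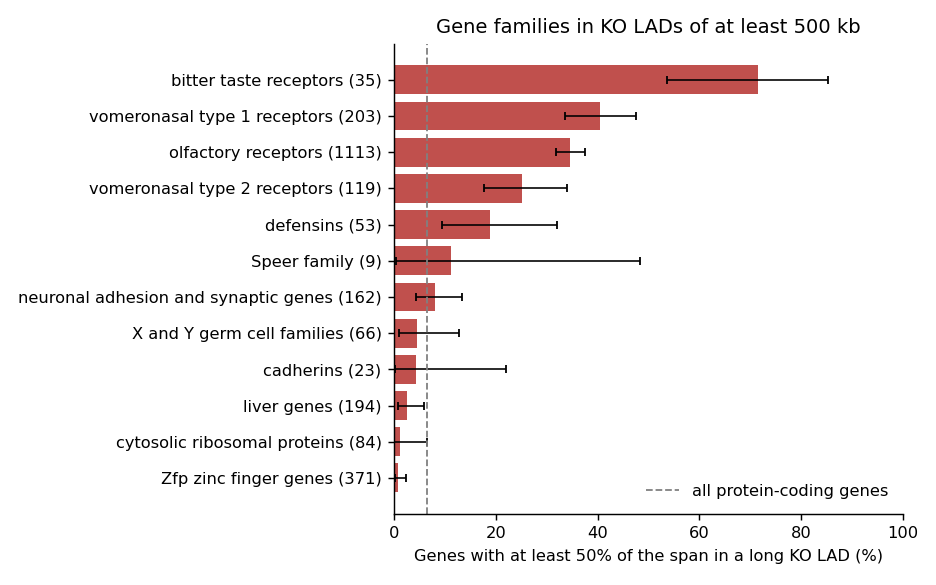
Share of each gene family (%, number of genes in brackets) that had 50% or more of the span in long KO LADs. Bars carry exact 95% intervals for counting error only, and the dashed line marks the 6.43% of all protein-coding genes, in or out of LADs. Bitter taste, vomeronasal and olfactory receptors stand to the right of the line, and the Zfp and ribosomal protein genes to the left.

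The gene-richest long KO LAD was chr10:128552023-129991645, 1440 kb at the end of chromosome 10, with 51 olfactory and 4 type 2 vomeronasal receptor genes among 58 inside; it also held *Neurod4*, a neuronal transcription factor. On chromosome 7, chr7:110119424-110839821 held 38 olfactory receptor genes among 40, and on chromosome 9, chr9:37569741-38518897 held 38 and no other. Chromosome 2 carried 3 such regions with 33, 30 and 30 olfactory receptor genes, all wholly in WT LADs. The largest vomeronasal cluster was in chr7:22834380-24439919, 1606 kb and wholly in 1 WT LAD, where 19 type 1 receptor genes lay beside *Nlrp5* and *Nlrp4e*, genes of the oocyte. Of the taste receptors, 12 lay in chr6:132716162-133418327, 702 kb.

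Other clustered families with tissue-restricted use were found in the same way, by symbol and after the gene-rich regions had been seen. Those named here were picked from a longer screen, and the share over all protein-coding genes was 6.43%. Other screened families, such as Mup, Prl, Psg, Ceacam and Taar, had no gene with at least 50% of its span in a long KO LAD. Protocadherins (Pcdh) had 1 of 36. The KO LAD chr3:92296561-93281718, 985 kb over 6 WT LADs, lay on part of the epidermal differentiation complex, with 1 of the 16 small proline-rich (Sprr) genes, all 18 late cornified envelope (Lce) genes, and *Flg2*, *Hrnr*, *Flg* and *Tchh*, which build the outer layer of skin and hair sheath. Its bridged gaps held the starts of *Flg*, *Ivl*, *Crct1*, *Lce1m* and *Tchh*. A KO LAD of 948 kb on chromosome 16, chr16:88653647-89601276, held 17 of 46 hair keratin-associated protein (Krtap) genes, wholly in 1 WT LAD. Clade B serpins (13 of 26 genes, 2 LADs), C-type lectins (10 of 32, 2 LADs) and killer cell lectin-like receptors (7 of 28, 1 LAD) were held by regions that were at least 99.1% in WT LADs at their largest cluster. Of the defensins, 10 of 53 lay in 2 LADs, 8 of them on chromosome 8 (*Defb14*, *Defb4*, *Defb6* and *Defb46* among them).

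Few liver and maintenance genes lay in long KO LADs, where 6.43% of all protein-coding genes had at least 50% of their span. Most of them lay in no KO LAD of any length. That held for 134 of the 194 genes of the liver list (69.1%) and 80 of the 84 cytosolic ribosomal protein genes (95.2%). The same share over all genes was not computed. Of all 22367 protein-coding genes, 14988 had their start in a gap between KO LADs, which includes genes that reach into a KO LAD. The liver share was thus not shown to differ from that of genes at large. Another 32 liver genes had at least 50% of their span in KO LADs but not in long ones. Of 194 genes of the liver list 5 had at least 50% of their span in a long KO LAD (2.58%, exact 95% interval 0.842 to 5.91%), and all 5 were of the Cyp2j cytochrome P450 cluster (*Cyp2j8*, *Cyp2j11*, *Cyp2j12*, *Cyp2j13* and the pseudogene-named *Cyp2j7-ps*) in 1 LAD on chromosome 4. Their spans lay wholly in WT LADs as well, though that KO LAD as a whole was 89.8% in WT LADs. Of 84 cytosolic ribosomal protein genes only *Rpl22l1* was in a long KO LAD, and of 371 Zfp genes 3 were, *Zfp804b*, *Zfp330* and *Zfp36l3*. *Zfp330* had 2.51% of its span in WT LADs. Of 66 genes in the germ cell families of X and Y there were 3, *Xlr*, *Mageb16* and *Magel2*, the last of which lies on chromosome 7, and of 9 Speer genes there was 1, *Speer1-ps1*.

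Very long neuronal genes lay partly in the long KO LADs. Of 162 neuronal adhesion and synaptic genes 13 (8.02%) had at least 50% of the span in long KO LADs as a sum, close to the 6.43% of all genes, and 11 of the 13 reached it in a single long KO LAD. *Nlgn1* (702 kb), *Gria2* (118 kb) and *Grik1* (394 kb) lay wholly within a long KO LAD and within WT LADs. The *Ptprd* and *Kcnh8* entries counted here are short models of 0.372 kb and 28.3 kb. *Cdh8*, which encodes a type II cadherin, was the only one of 23 cadherin genes, with 51.5% of its 392 kb. Of the 200 genes of at least 500 kb anywhere in the genome, 28 had 50% or more of the span in long KO LADs, 25 of them in a single one.

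The longest genes of this kind were broken by KO gaps even though long KO LADs covered most of them. *Cntnap2*, a cell adhesion gene of the neurexin family and the longest at 2241 kb (chr6:45010060-47251368), had 57.1% of its span in long KO LADs, 91.4% in any KO LAD and 97.3% in WT LADs; its share came from 2 long KO LADs, the larger with 29.2%. The contactin genes *Cntn5* and *Cntn4* had 65.6% and 52.8% in long KO LADs, and both lay wholly in WT LADs; that of *Cntn5* came from 2 long KO LADs, the larger with 48.1%. *Agbl4* (64.0%), *Fam190a* (59.1%), *Sgcd*, a sarcoglycan gene (63.0%), *Ntm*, a neuronal adhesion gene (62.8%), and *Thsd7b* (93.8%) likewise lay wholly in WT LADs. *Erbb4*, a neuregulin receptor gene, had 63.2% and *Galntl6* 75.1%, and their spans were 95.2% and 98.5% in WT LADs. Of the 10 longest, 7 overlapped a WT-only DR alone (PI, 5.43% of all genes). The other 3, *Cntnap2*, *Galntl6* and *Erbb4*, overlapped DRs of both directions (AMB, 2.96% of all genes). A gene this long meets a DR easily when 1 base of overlap is enough. The 7 PI genes still had 90.8% (*Cntn4*) to 98.5% (*Thsd7b*) of their span in KO LADs.

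The long KO LADs were unevenly placed among the chromosomes. Chromosome 1 had 52, chromosome 3 had 44 and chromosome 2 had 32, whereas chromosome 11 had 6 and chromosomes 19 and Y had none. They covered 19.9% of chromosome 3 and 19.4% of chromosome 1, but 3.65% of chromosome 11. The longest KO LAD of chromosome 19 was 144 kb and that of Y was 435 kb, while the longest WT LADs there were 1337 kb and 1267 kb. Chromosome X had 39.3% of its length in long WT LADs, close to the 40.4% of chromosome 1, but 6.50% in long KO LADs. Its longest was 857 kb (chrX:152968878-153825953) and held most of *Phex*, a gene of phosphate balance.

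**Figure D5:**
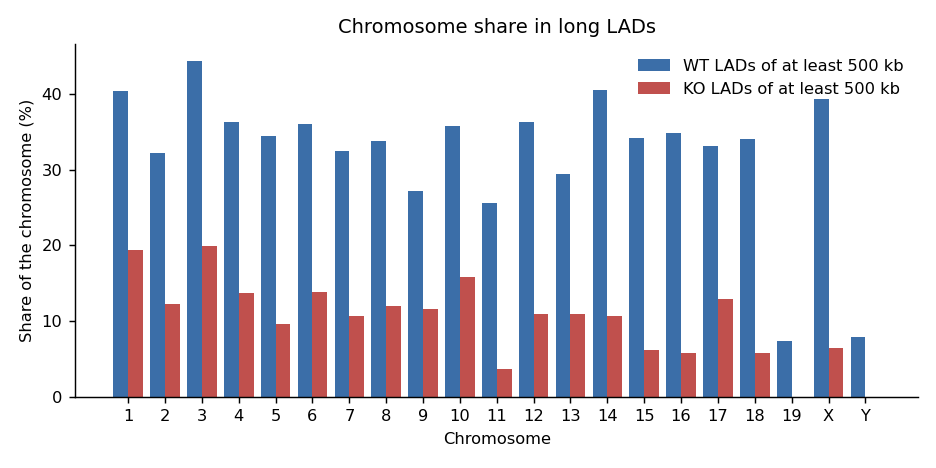
Share of each chromosome (%) in WT LADs (blue) and KO LADs (red) of at least 500 kb, 1 pair of bars per chromosome. Chromosomes 1 and 3 have the tallest red bars, and chromosomes 19 and Y have none.

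The sequence of the long KO LADs was A+T-rich and repetitive. They had 61.2% A+T, the same as the 61.3% of the long WT LAD bases outside them and above the 58.2% of the genome. GATC sites stood at 2.64 per kb, compared with 2.56 in the long WT LADs outside them, 2.38 outside LADs of both genotypes and 2.51 in the genome, and the median region held 1748 sites (1163 to 5134). Of 31-base words sampled every 500 bases, 74.1% were found once in the genome, compared with 79.6% in the long WT LADs outside them and 90.4% outside all LADs. KO LADs of 100 to 500 kb had 60.5% A+T, 2.59 GATC sites per kb and 78.0% of words found once. Over the single long KO LADs the median share of words found once was 78.7% (0.299 to 96.3%), with 249 under 80% and 31 under 50%. The part of this difference in the length of the KO LADs was not tested.

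The most repetitive regions included the longest of all. The KO LAD chr14:3808939-5557431, 1748 kb, had 4.55% of its words found once, lay over 4 WT LADs and shared both of its borders with WT borders; its 37 genes inside have Gm symbols. The lowest of all was chrX:28690973-29192207, 501 kb, at 0.299%, followed by chr5:94567362-95612071, 1045 kb, at 2.68%. The vomeronasal cluster on chromosome 7 stood at 14.5%. The 23 LADs with olfactory receptor genes had a median of 69.5% (57.5 to 90.4%), and none of them fell under 50%. Of the 9 LADs with type 1 vomeronasal receptor genes 5 did, with a median of 41.6%.

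The other regions among the 10 longest were mostly gene-poor. The KO LAD chr4:77704740-79409817, 1705 kb, joined 3 WT LADs and held 1 short *Ptprd* model. The KO LADs chr13:6631854-8074196 (1442 kb) and chr4:4705949-6143451 (1438 kb) joined 2 WT LADs each, the former with 2 Gm genes and the latter with *Fam110b* and *Ubxn2b*. The KO LAD chr3:158160390-159598896, 1439 kb, ended 0.887 kb from the end of chromosome 3 and held *Wls*, a gene of Wnt secretion, *Depdc1a*, and *Rpe65*, a gene of the visual cycle. The KO LAD chr1:17626222-19043824, 1418 kb, filled 88.3% of its WT LAD and held *Crispld1*, *Crisp4*, *Defb41* and *Defb18*, of which *Crisp4* and the defensins are known from the epididymis.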

How the data were processed

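DamID was performed on primary mouse hepatocytes, with Dam-LaminB1 and Dam-only libraries from each genotype. The authors took the log2 ratio of both constructs, segmented the profile with DNAcopy (circular binary segmentation), and deposited 2 LAD lists and 2 DR lists on mm9 (BWA and limma are named in the submitters' processing notes). The deposited files hold interval positions (chromosome, start and end) and no signal, count or score. Each LAD list stands for 1 genotype, as the sample labels and list names give it, and comes from the ratio of its Dam-LaminB1 and Dam-only libraries. Each DR list depends on both genotypes, since the authors obtained DRs by subtracting LADs.

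Positions are printed 1-based. Overlaps were computed with Python 3.11.15 and numpy 2.4.6, exact Clopper-Pearson intervals with scipy 1.17.1, sequences and GATC sites with pysam 0.24.0 and samtools 1.23.1 from NCBIM37, and figures with matplotlib 3.10.9. Genes were the 22367 protein-coding entries of GENCODE M1. A 31-base word was sampled every 500 bases and counted over the genome on both strands (numba 0.67.0). Overlap counting was tested on simulated data. The genome used carries no repeat masking, so annotated repeats were not analysed here. Gene classes were recomputed after the study's definitions with an overlap of 1 base or more, and class II took all genes left over. They gave 1215 PI and 3826 IP genes, which differ from the study's counts over the genes of its microarray. Single genes differed too, as *Mgmt* was PI here and PP in the study.

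The members, gene lists and alternatives were chosen with earlier results of these data known. Named regions were the 10 longest, the 3 on each side of the length limit, the 5 with the lowest share in WT LADs, up to 5 over most WT LADs, up to 5 with both borders near those of 1 WT LAD, the longest on X, the kept WT LADs of at least 1000 kb and the WT LADs holding most long KO LADs. Named genes were up to 4 per region or list, the 10 longest, and the study's own that overlap a member; other names were added after their values were seen. No test between genotypes was possible. Minimum length, joining of LADs across gaps, chromosomes, repetitive regions, border tolerance and gene overlap were varied. Some genes are not reported here.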

Additional observations from a re-analysis of the deposited data

How the results depend on the processing

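With no replicate libraries, a share was taken as unchanged when it stayed within its exact 95% interval and a number when it stayed within a factor of 1.5. Of 52 alternatives 29 left the value unchanged and 23 moved it. The number of long KO LADs, 419, became 695, 137 and 39 at a minimum of 400, 750 and 1000 kb. At 1000 kb, 100% had at least 90% of their bases in WT LADs, 43.6% lay inside 1 WT LAD and 48.7% over at least 2.

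Joining LADs of both lists across gaps of up to 10 kb raised the share of long WT LADs kept in 1 KO LAD from 7.33% to 10.99%. Joining across gaps of up to 50 kb raised it to 67.3%, gave 726 long KO LADs, and lowered the share with at least 90% in WT LADs to 73.4% and the share inside 1 WT LAD to 20.0%. The kept share was 4.80% when 95% in 1 KO LAD was asked, 32.3% when 50% was asked, 1.86% for WT LADs of at least 1000 kb and 5.46% for WT LADs with at least 80% unique words.

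Keeping only long KO LADs with at least 80% unique words left 170, of which 92.9% had at least 90% in WT LADs, 45.3% lay inside 1 WT LAD and 41.8% over at least 2, with 268 genes inside in place of 1327. A limit of 50%, added after seeing the data, moved no value. Allowing 10 kb outside the WT LAD at each end raised the share inside 1 WT LAD to 60.4%. Borders shared with WT were 1.67% at the identical base and 14.7% within 10 kb. Autosomes alone and the other gene overlaps moved no value. No paired analysis was possible because each genotype has a single pooled pair of libraries and no result comes from a test. The depth of each region is unknown, which limits how finely borders and short gaps can be placed.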
